A study of Mus musculus with 6 samples.

Results

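Matricellular proteins are secreted into the extracellular matrix, where they tune how cells adhere and respond to growth factors instead of bearing load. Of 10 such genes chosen for description, Tnc, Tnxb, Smoc1, Smoc2, Sparc, Sparcl1, Postn, Thbs1 and Thbs2 had at least 1 probe on the array whose annotated symbol is the gene's name. Those 9 genes had 25 of the 45281 probes. No probe carried the symbol of Spp1, which encodes osteopontin, so Spp1 was not analysed here. The genes were chosen by name with the contrast of mutant with control nerves already known, since Tnc and Smoc1 were among the genes with the largest rise, so the set counts as selected on that difference. Their differences and calls are therefore given as a description, without p-values.

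The study measured total RNA of sciatic nerve at postnatal day 14 on Mouse WG-6 version 2 bead arrays. The 3 mutant arrays are of mice with P0 Cre and a Dicer genotype labelled F or N, and the 3 control arrays are of control littermates, both of mixed sex. What F or N stands for, which alleles the controls carry, and whether an array held a pool of animals are not given in the sources used here, so the spread between arrays may be partly technical. P0 Cre is active in Schwann cells, the glia of the nerve, so the mutation is directed to them. Dicer cuts microRNA precursors to their mature form. The series' design text calls the material cultured cells, whereas every sample label names sciatic nerve, which is followed here. The Dicer1 gene had 3 probes. One (ILMN_2483253) had 9.17 ± 0.0996 in mutants and 9.19 ± 0.0845 in controls, and was not called. Another (ILMN_1215331) had 8.39 ± 0.0565 in mutants and 8.59 ± 0.0824 in controls (SD, n = 3 each), a fall of 0.20 whose call was lost with the replicate block, with no filter, and without any array other than control replicate 3. The third was left out as dim. Where they lie relative to the mutated part is not known here, so they check no label.

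The tenascins are large multimodular glycoproteins. Tenascin-C is abundant in the developing nerve and is made again after injury, while tenascin-X organises collagen fibrils in connective tissue. The SPARC family, which includes SPARC, hevin (Sparcl1) and the SMOC proteins, binds collagen or growth factors. Periostin, encoded by Postn, binds collagen and integrins, and the thrombospondins bind cell surface receptors and growth factors.

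The unit of every value is the deposited normalized signal, whose scale is log2-like, and each difference is mutant minus control on that scale. Because the transform is not settled between plain log2 and a variance-stabilising one, differences among dim probes may understate the log2 fold change. Signals ran from 7.96 to 15.91 over all probes, and the median of each array was 8.24. Of the 25 probes, 17 were among the 18420 brightest probes, which were tested, and 8 were left out as dim. A probe is called when its limma p-value, adjusted over the 18420 probes, is under 0.05. The arrays parted by genotype on the first principal component (80.7% of the variance), while on the second (11.7%) mutant replicate 1 lay away from mutant replicates 2 and 3. Levels in whole nerve cannot tell fewer cells of a type from less RNA per cell.

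In the mutant nerves, Tnc and Smoc1 rose by about 3 units, Thbs2 by 0.98 and Postn by 0.72. Tnxb, Smoc2, Sparcl1 and Thbs1 were not called, and the Sparc probes disagreed. By its brightest tested probe, 4 of the 9 genes were called higher and 0 lower, where 22.0% of all 10273 genes were called higher and 17.6% lower. In 10 of the 17 tested probes all mutant arrays lay above all control arrays, against 28.3% of all tested probes. By probe, 8 of 17 were called higher and 0 lower, against 19.9% and 15.9% of all tested probes. Among these 8, the second Smoc1 and Postn probes had control means under 8.34, the lowest mean among the tested probes. These probes were tested only through the mutant arrays. The median difference of the 9 genes was 0.36, and that of all genes was 0.01. Since the choice of the genes used this contrast, nothing is read from these shares.

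The RefSeq promoter table (GRCm38.p6) held windows for 6 of the 10 genes. The 250 bases before a start site are shown for 3 genes that were called higher, Tnc, Postn and Thbs2, and for Tnxb, the tenascin gene that was not called. Each runs 5′ to 3′ on the strand of the gene. Capitals mark exact matches, on either strand, to any of 4 motifs. These are TGANTCA (bound by AP-1 factors), CATTCC (bound by TEAD factors), GTGGGCG (part of the Egr element) and TATAAA (a form of the TATA box). For Tnc and Postn, which have 2 listed start sites each, the one downstream is shown.
Tnc, chr4:64046937-64047186, minus strand: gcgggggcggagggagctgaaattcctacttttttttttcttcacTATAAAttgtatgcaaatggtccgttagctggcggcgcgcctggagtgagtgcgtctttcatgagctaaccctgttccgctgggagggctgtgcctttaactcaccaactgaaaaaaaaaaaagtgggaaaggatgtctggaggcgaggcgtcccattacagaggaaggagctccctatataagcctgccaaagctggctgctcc
Postn, chr3:54360857-54361106, plus strand: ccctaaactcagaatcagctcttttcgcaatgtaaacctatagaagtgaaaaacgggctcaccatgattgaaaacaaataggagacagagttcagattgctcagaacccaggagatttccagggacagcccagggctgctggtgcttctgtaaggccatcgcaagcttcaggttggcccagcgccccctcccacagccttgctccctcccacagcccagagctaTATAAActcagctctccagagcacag
Thbs2, chr17:14694263-14694512, minus strand: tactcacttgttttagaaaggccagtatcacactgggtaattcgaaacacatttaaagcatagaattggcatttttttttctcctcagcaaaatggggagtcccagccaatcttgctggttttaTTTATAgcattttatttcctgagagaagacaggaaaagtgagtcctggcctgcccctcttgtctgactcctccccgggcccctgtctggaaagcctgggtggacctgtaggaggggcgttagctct
Tnxb, chr17:34670285-34670534, plus strand: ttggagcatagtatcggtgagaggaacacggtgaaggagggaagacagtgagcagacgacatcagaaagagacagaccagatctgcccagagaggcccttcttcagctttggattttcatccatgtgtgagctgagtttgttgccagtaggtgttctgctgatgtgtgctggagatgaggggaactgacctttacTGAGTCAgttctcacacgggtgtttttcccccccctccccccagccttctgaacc

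The motif TATAAA began 205 bases before the Tnc start and 26 before the Postn start. Its reverse complement began 126 bases before the Thbs2 start. Only exact letters were searched, so variants are not marked, such as the tatataag close to the end of the Tnc window. The exact motif TATAAA was found in 12.4% of the 32851 promoter windows in the table. The AP-1 motif was matched in the Tnxb window alone among these 4, 55 bases before the start, and in 6.75% of all windows. The letters of the TEAD and Egr motifs were in none of the 4, and in 12.6% and 7.02% of all windows.

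Tnc was read by 7 probes, of which 2 were tested. The brightest (ILMN_2463181) stood at 12.04, 11.95 and 11.76 in mutant nerves, against 8.91, 8.84 and 8.74 in control nerves. Its mean was 11.92 ± 0.143 in mutants and 8.83 ± 0.0867 in controls (SD, n = 3 each), a difference of 3.09 (SE 0.0872), which would be 8.5-fold if the scale is log2. All mutant arrays lay far above all control arrays. The control mean lay above the array median of 8.24 and above 8.34, the lowest mean among the tested probes. The second probe (ILMN_2463180) gave 11.79, 11.86 and 11.51 in mutants and 8.74, 8.83 and 8.61 in controls, a difference of 3.00 (SE 0.106). Without mutant replicate 1 the differences of the 2 probes were 3.03 and 2.96.

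The other 5 Tnc probes lay at the dim end of the scale in both groups and showed little or none of that difference. The third probe (ILMN_2485085) had 8.55, 8.50 and 8.43 in mutants and 8.14, 8.11 and 8.16 in controls, a difference of 0.36 (SE 0.035) that was called higher in the fit of all 45281 probes. There 7.95% of probes were called higher. The groups of the sixth probe (ILMN_2567596) also stood apart, with 8.24, 8.19 and 8.17 in mutants and 8.10, 8.08 and 8.12 in controls, but it was not called. The remaining 3 probes (ILMN_1236724, ILMN_2454497 and ILMN_1251943) differed by 0.04, 0.05 and 0.01, with overlapping groups. Which part of the transcript each probe reads was not analysed here, so the size of the rise in Tnc rests on the 2 bright probes.

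Tnxb, read by 6 probes of which 4 were tested, did not show that rise. The brightest (ILMN_2440823) had 11.54, 11.80 and 11.92 in mutant nerves and 11.87, 12.00 and 11.71 in control nerves. Its difference was -0.11 (SE 0.118), and mutant replicate 1 was the lowest of the 6 arrays. Without that array the difference was -0.00. The next probes (ILMN_2973958 and ILMN_2444411) differed by -0.08 (SE 0.0738) and 0.00 (SE 0.0976), again with overlapping groups. A dim probe (ILMN_1230470) had 8.65, 8.59 and 8.58 in mutants and 8.53, 8.52 and 8.43 in controls. There the mutants stood just above the controls, at a difference of 0.11 (SE 0.0537), and the probe was not called. The 2 probes left out as dim (ILMN_2502227 and ILMN_2492671) differed by 0.01 and -0.01.

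**Figure D1:**
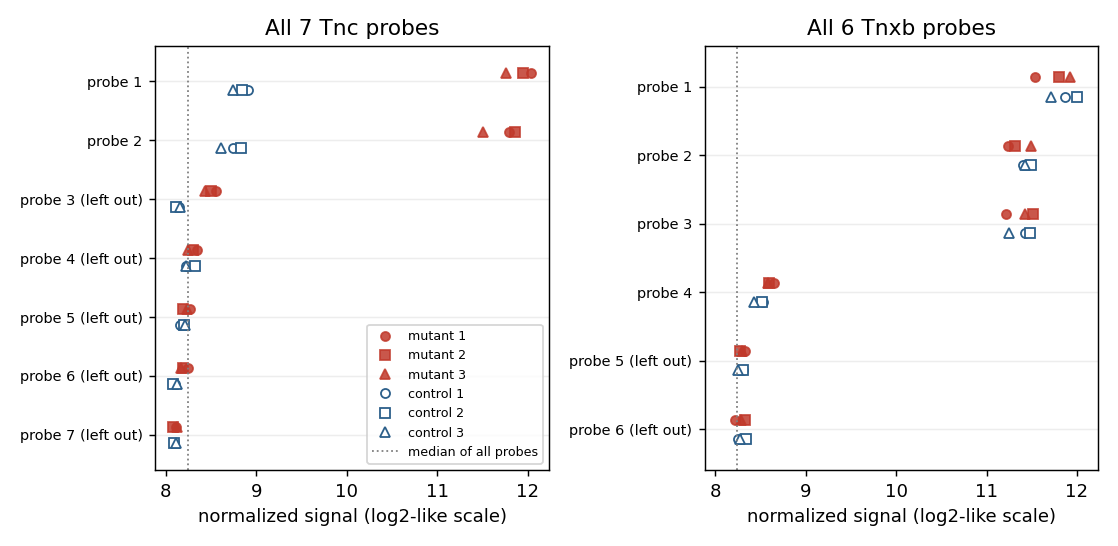
Normalized signal (x axis, log2-like scale) of every Tnc probe (left) and Tnxb probe (right), brightest first, with 3 mutant arrays (filled red) and 3 control arrays (open blue) per probe and the array median of 8.24 as a dotted line. The first 2 Tnc probes part the groups by 3.09 and 3.00, while the 3 bright Tnxb probes overlap.

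Smoc1, a SPARC family protein that opposes bone morphogenetic protein signalling, rose in both of its probes by unequal amounts. The bright probe (ILMN_1225376) stood at 12.42, 12.13 and 12.30 in mutants and at 9.34, 9.29 and 9.21 in controls. The means were 12.29 ± 0.145 in mutants and 9.28 ± 0.0688 in controls (SD, n = 3 each), a difference of 3.01 (SE 0.0846). The dim probe (ILMN_2567020) had 9.08, 8.97 and 8.85 in mutants and 8.25, 8.22 and 8.28 in controls, a difference of 0.72 (SE 0.0697). No array of one group reached the other in either probe. The control mean of the dim probe was under 8.34, the lowest mean among the tested probes, so it was tested only through the mutant arrays. Without mutant replicate 1 the differences were 2.94 and 0.66.

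Smoc2, the close relative of Smoc1, had 1 probe (ILMN_2554610), dim in both groups. It stood at 8.29, 8.38 and 8.45 in mutants and at 8.38, 8.39 and 8.35 in controls. The mutant arrays lay on both sides of the controls, and the difference was 0.00 (SE 0.0585).

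Sparc, a collagen-binding protein of bone and connective tissue, was read by 3 probes close to the top of the scale, which disagreed. The brightest (ILMN_3136561) had 15.67, 15.50 and 15.43 in mutants and 15.41, 15.46 and 15.36 in controls, a difference of 0.12 (SE 0.0756), or 0.05 without mutant replicate 1, and was not called. The second (ILMN_3059326) had 15.08, 14.93 and 14.98 in mutants and 14.75, 14.66 and 14.78 in controls. It was called higher at 0.26 (SE 0.0628), with no overlap, but the call was lost with an intensity trend and without control replicate 1 or 2. The third (ILMN_1243212) had 14.13, 13.69 and 13.98 in mutants and 13.98, 13.76 and 14.24 in controls, with overlap (difference -0.06, SE 0.154). Signals this close to the maximum of 15.91 may be compressed, which was not tested.

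Sparcl1 encodes hevin, a SPARC relative known from astrocytes as a factor in synapse formation. Its probe (ILMN_1237917) had 10.394, 10.126 and 10.120 in mutants and 9.997, 9.616 and 9.937 in controls. Every mutant array was above every control array, but the difference of 0.36 (SE 0.124) was not called. With the replicate number as a block, the same difference was called, and with array weights a difference of 0.27 was.

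Postn, which encodes periostin, was read by 3 dim probes, of which 2 were tested. The brightest (ILMN_1216882) had 9.34, 9.05 and 8.96 in mutants and 8.47, 8.36 and 8.37 in controls. It rose by 0.72 (SE 0.103), and by 0.60 without mutant replicate 1. The second (ILMN_2493114) had 8.64, 8.52 and 8.47 in mutants and 8.32, 8.26 and 8.18 in controls, a rise of 0.29 (SE 0.0672) whose call was lost without control replicate 2 or 3. It too was tested only through the mutant arrays. The third (ILMN_2766028), left out as dim, differed by 0.19 (SE 0.0404) and was called in the fit of all probes. The mutants lay above the controls in all 3 probes, and mutant replicate 1 was the highest array in each.

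Thbs2 encodes thrombospondin-2, which restrains blood vessel growth and clears the protease encoded by Mmp2. Its probe (ILMN_2635229) had 13.78, 13.44 and 13.40 in mutant nerves and 12.70, 12.51 and 12.46 in control nerves. The means were 13.54 ± 0.206 in mutants and 12.56 ± 0.131 in controls (SD, n = 3 each), a rise of 0.98 (SE 0.118), or 0.86 without mutant replicate 1. The groups lay well apart. Thbs1 encodes thrombospondin-1, a protein of platelets and many other cells that activates latent transforming growth factor beta (TGF-beta). Its probe (ILMN_2659151) had 9.06, 8.80 and 8.78 in mutants and 8.59, 8.80 and 8.56 in controls. The groups met at 8.80, and the difference of 0.23 (SE 0.101), or 0.14 without mutant replicate 1, was not called.

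**Figure D2:**
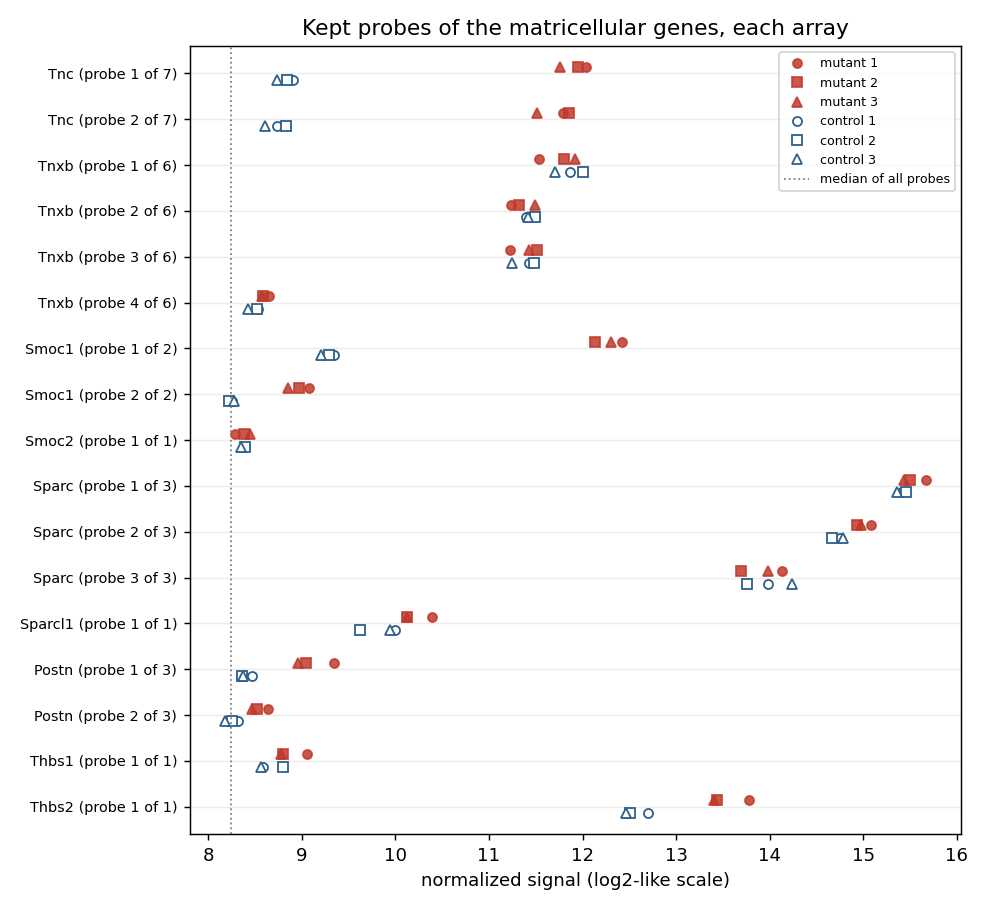
Normalized signal (x axis, log2-like scale) of the 17 tested probes, with 3 mutant arrays (filled red) and 3 control arrays (open blue) per probe and the array median of 8.24 as a dotted line. The groups stand widest apart in the 2 Tnc probes and the bright Smoc1 probe, and overlap in 7 of the 17.

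**Figure D3:**
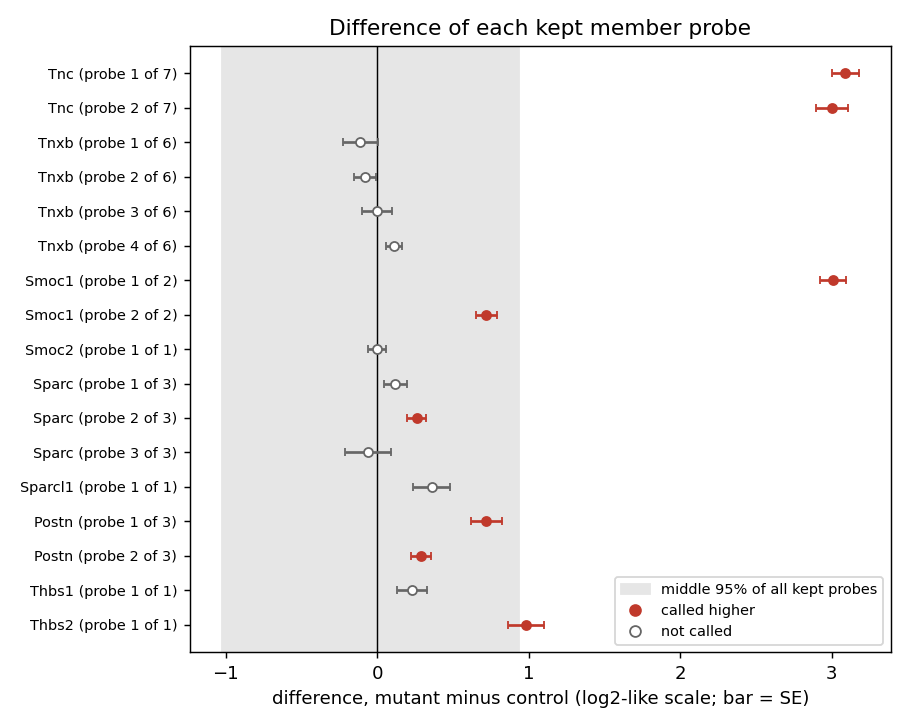
Difference of each tested probe (mutant minus control, log2-like scale, bars are SE), red where called higher and open where not called. The grey band, from -1.03 to 0.93, holds the middle 95% of all tested probes, and the Tnc probes, the bright Smoc1 probe and Thbs2 lie above it.

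Mutant replicate 1 was the highest mutant array in 12 of the 17 tested probes, against 44.4% of all tested probes. Among the 8 probes called higher it was highest in 7, against 58.4% of all probes called higher. The 5 probes where another mutant array was highest were the second Tnc probe, the 3 bright Tnxb probes and Smoc2. All 8 calls were kept when mutant replicate 1 was left out.

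The brightest probes of Tnc and Smoc1 rose by similar amounts (3.09 and 3.01), and both genes were chosen with that rise known. Among the mutant arrays, replicate 3 was the lowest for Tnc and replicate 2 for Smoc1. By Euclidean distance between profiles, each taken as differences from its own control mean, the genes nearest to the brightest Tnc probe among 10272 were Cdh6 (0.232), Gdnf (0.289), Smoc1 (0.29), Kcnh2 (0.611) and Ngfr (0.683). Those nearest to Smoc1 were Gdnf (0.16), Cdh6 (0.275), Tnc (0.29), Kcnh2 (0.446) and Gfra3 (0.624). Cdh6 encodes a cadherin, Gdnf a neurotrophic factor, Gfra3 a co-receptor of its family, Kcnh2 a potassium channel and Ngfr a neurotrophin receptor. The control mean of Gdnf was 8.15, under the array median and the lowest mean tested, so Gdnf was tested only through the mutant arrays, and its distances and their order are not a measured likeness. With groups this far apart, the measure mostly ranks genes by the size of their rise.

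In the RefSeq gene table, Smoc2 and Thbs2 are neighbours on chromosome 17 with 0 protein-coding genes starting between them. Of this pair, Thbs2 was called higher and Smoc2 was not called. Sparcl1 and Spp1 lie on chromosome 5 with 4 protein-coding genes between them, Dspp, Dmp1, Ibsp and Mepe, which like Spp1 encode secreted proteins of mineralised tissue. All 4 lay at the dim end of the scale in both groups, as Mepe did with 8.29 in mutants and 8.32 in controls, and none was among the tested probes.

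Lists of genes that act with these proteins were examined by the brightest tested probe of each gene. Of 10 tested genes of other matricellular proteins, 1 rose and 3 fell, with a median of -0.07. Over all tested genes, 22.0% were called higher and 17.6% lower, with a median of 0.01. Ccn4 and Ccn3, of the CCN family of secreted signalling modulators, fell by 0.82 (SE 0.123, limma adjusted p = 0.00275) and by 0.46 (SE 0.0722, adjusted p = 0.00329). A second Ccn4 probe was not called (-0.19), and a second Ccn3 probe was called lower (-0.41). Spock2, a proteoglycan of the SPARC family, fell by 0.27 (limma adjusted p = 0.0332), and Tgfbi, an integrin ligand related to periostin, rose by 0.40 (adjusted p = 0.028). Their second tested probes were called the same way (-0.17 and 0.69). By the brightest probe, the mutant means of Ccn3 (8.23) and Spock2 (8.32) were under 8.34, the lowest mean tested. Ccn3 and Spock2 were thus tested only through the control arrays, so nothing is read from their p-values. Without any one of control replicates 1, 2 and 3 the number of genes called in this list was 2 instead of 4, since Spock2 and Tgfbi lost their calls. With the replicate block the Spock2 call was lost as well (limma adjusted p = 0.0683). Over all alternatives the adjusted p ran from 0.0109 to 0.112 for Spock2 and from 0.00204 to 0.0913 for Tgfbi. The other tenascin genes on the array, Tnr and Tnn, and Thbs4 lay at the dim end in both groups and were not tested.

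Of 23 tested receptor genes, 9 rose and 2 fell, with a median of 0.21, against 22.0% and 17.6% of all tested genes. Itga7, an integrin subunit that binds laminin, had 11.29, 11.35 and 11.28 in mutants and 10.16, 10.08 and 9.99 in controls, a rise of 1.23 (SE 0.0624, limma adjusted p = 2.80e-05). Cd44, a receptor for hyaluronan and osteopontin, rose by 1.07 (SE 0.113, limma adjusted p = 6.04e-04) and by 0.62 in its second tested probe, and Cntn1, an adhesion molecule that binds tenascins, rose by 0.84 (SE 0.138, adjusted p = 0.00408). Itgb5, whose product pairs with that of Itgav, fell, with 10.32, 10.37 and 10.40 in mutants and 11.53, 11.49 and 11.37 in controls (difference -1.10, SE 0.0609, limma adjusted p = 4.05e-05). Itgav itself rose by 0.60 (0.41 in its second tested probe) and Itgb3, another of its partners, by 0.29, with a call that was lost with no filter and without mutant replicate 2 or control replicate 2 or 3, while the tenascin receptor gene Itga9 differed by 0.18 and was not called. Itgav, Itgb3 and Itga9 were chosen after their values were seen. The control means of Itgb3 (8.31) and of Ptprz1 (8.27), which also rose, were under 8.34, the lowest mean tested. Both were tested only through the mutant arrays.

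Of 16 tested genes of matrix partners, 6 rose and 1 fell, with a median of 0.35, against 22.0% and 17.6% of all tested genes. Nid1, a linker of the basement membrane, rose by 1.44 (SE 0.14, limma adjusted p = 4.31e-04), but by 0.59 in its second tested probe. Lum, a small proteoglycan of collagen fibrils, rose by 0.99 (SE 0.163, adjusted p = 0.00419). Col1a1, a chain of the main fibrillar collagen, rose by 0.61 (SE 0.0955, limma adjusted p = 0.00334). Col14a1, a collagen on the surface of fibrils, fell by 0.65 (SE 0.0751, limma adjusted p = 8.99e-04), while its second tested probe was not called (0.24).

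Of 17 tested genes of proteases, their inhibitors and crosslinkers, 8 rose and 2 fell, with a median of 0.31. Among all tested genes, 22.0% rose and 17.6% fell. Mmp14 and Mmp2, a membrane-bound metalloprotease and the secreted one it activates, rose by 1.17 (SE 0.0928, limma adjusted p = 1.80e-04) and by 0.84 (SE 0.0916, adjusted p = 7.15e-04). Plat, the tissue plasminogen activator, rose by 1.12 (SE 0.0994, limma adjusted p = 2.84e-04). The collagen crosslinking enzyme gene Lox fell, with 12.12, 11.42 and 11.31 in mutants and 12.55, 12.67 and 12.66 in controls (difference -1.01, SE 0.204, limma adjusted p = 0.00944). Mutant replicate 1 stood nearest to the controls there. Without control replicate 3, 6 genes of this list were called instead of 10.

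Of 18 tested upstream regulators, 7 rose and 1 fell, with a median of 0.05. Other probes disagreed in places. Wwtr1 was not called by its brightest probe (-0.05), but its other tested probes were called lower (-0.43 and -0.40). Tgfbr2 rose by 0.69, but its second tested probe was not called (0.18). Egr1, an early response transcription factor, had 13.90, 13.83 and 13.29 in mutants and 11.89, 11.56 and 11.22 in controls, a rise of 2.12 (SE 0.217, limma adjusted p = 5.44e-04). In TGF-beta signalling, which induces several of these proteins in other cells, the signal transducer gene Smad3 rose by 1.07 (SE 0.0743, limma adjusted p = 1.05e-04) and the receptor gene Tgfbr1 by 0.90 (SE 0.148, adjusted p = 0.00405). Their other tested probes rose less, by 0.68 for Smad3 and by 0.26 and 0.53 for Tgfbr1. Ets1, a transcription factor, rose by 0.77 (SE 0.136, limma adjusted p = 0.00542). Over all 10273 genes, by the brightest tested probe, 22.0% were called higher and 17.6% lower, and the median was 0.01.

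**Figure D4:**
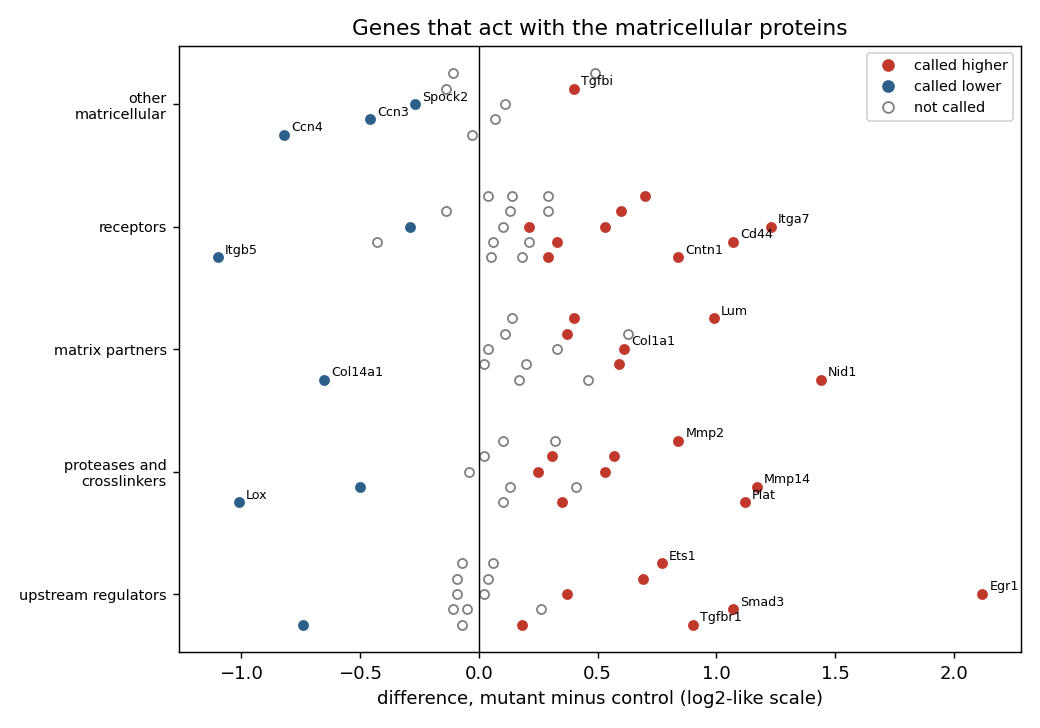
Difference of each tested gene (x axis, mutant minus control, log2-like scale) in 5 lists, by the brightest tested probe, red where called higher, blue where called lower and open where not called, with points spread vertically only to be seen. Egr1 (2.12) lies farthest to the right and Itgb5 (-1.10) farthest to the left.

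Markers of the cells that a nerve sample can hold were examined beside these results. The counts of called markers stand against 22.0% of all tested genes called higher and 17.6% called lower. Sox10, which marks Schwann cells, stood at 13.98 in mutants and 13.94 in controls and was not called. Of 5 tested Schwann cell markers, Ngfr, known from immature cells, rose by 3.42 (SE 0.0817, limma adjusted p = 3.95e-06). Egr2, a transcription factor of myelination, fell by 2.45 (SE 0.0947, limma adjusted p = 1.00e-05), and S100b fell by 1.19 (SE 0.172, adjusted p = 0.00236). The part of these changes in the values of Tnc and Smoc1 was not tested. The mean of all 6 on the array ran from 10.59 to 10.70 in mutants and from 10.65 to 10.76 in controls. Of 8 fibroblast markers, 3 (Lum, Col1a1 and Osr2) rose and 0 fell, though a second tested Osr2 probe was not called (0.11). Dpt and Pi16 had lower means in mutants without a call (-0.36 and -0.35). The mean level of all 8 ran from 12.66 to 12.85 in mutants and from 12.46 to 12.52 in controls. These ranges do not overlap, and neither do those of the platelet, mast cell, macrophage and adipocyte markers given below. The mean level of the fibroblast markers was highest in mutant replicate 1. It was the highest mutant array in Lum, as in Thbs2 and Postn, but the lowest mutant array in Col1a1 and Osr2. Lum and Col1a1 also stand in the list of matrix partners. The part of the fibroblast markers in the values of Thbs2 and Postn was not tested.

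Of 3 tested platelet markers, 0 rose and 1, Itga2b, fell, and the mean of all 5 on the array ran from 8.63 to 8.84 in mutants and from 8.98 to 9.00 in controls. Their part in the level of Thbs1 was not tested. Itga2b, with a mutant mean of 8.31, under 8.34, the lowest mean tested, was tested only through the control arrays. All 4 mast cell markers rose, with means from 9.83 to 10.37 in mutants and from 9.22 to 9.33 in controls. Of 8 macrophage markers on the array, 7 were tested, of which 1, Cx3cr1, rose and 0 fell, and the means ran from 10.09 to 10.15 in mutants and from 9.89 to 10.02 in controls. Of 5 tested endothelial markers 0 rose and 1, Cldn5, fell, and the mean of all 6 ran from 9.79 to 9.94 in mutants and from 9.89 to 10.10 in controls. Of 6 mural cell markers Pdgfrb rose and Kcnj8 fell, the second at the threshold and not without most single arrays, with means from 10.09 to 10.19 in mutants and from 9.88 to 10.41 in controls. Of 6 perineurial markers Itgb4 rose and Tjp1 fell, with means from 11.00 to 11.10 in mutants and from 11.04 to 11.25 in controls.

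Skeletal muscle markers varied most between arrays, from 9.71 to 11.98 in mutants and from 11.82 to 13.24 in controls, and 0 of 4 were called. Mutant replicate 3 had the lowest level and control replicate 2 the highest. Without mutant replicate 3 the 8 probes called higher kept their calls, and without control replicate 2 the smaller Sparc and Postn calls were lost. The Sparc call was also lost without control replicate 1, and the Postn call without control replicate 3. The part of the muscle markers in the values of the chosen genes was not tested. Of 2 tested adipocyte markers, Ucp1 fell, and the mean of all 4 ran from 8.95 to 9.10 in mutants and from 9.31 to 9.53 in controls. Of the tendon markers, Fmod alone was tested and was not called, while Scx, Tnmd and Mkx lay at the dim end, and the mean of all 4 ran from 8.42 to 8.48 in mutants and from 8.44 to 8.53 in controls.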

How the data were processed

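Each deposited value is a normalized bead array signal on a log2-like scale. Per the labels (the design text), the authors worked with limma and normalized by RMA, and the submitters' processing notes name lumi 1.8.3. How background was corrected is not stated there. All 6 columns have the same median and were used as they are. No present or absent calls were used here. Probes were ranked by their mean over the 6 arrays instead, and the brightest 18420 were tested, the number that the design text states. Names came from the platform annotation, in which 34885 of 45281 probes had 1 gene symbol.

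The mutant minus control difference of each probe was fitted with limma 3.58.1 in R 4.3.3 (2-sided, 4 residual and 2.63 prior degrees of freedom), with Benjamini-Hochberg adjustment over the tested probes. The limma fit without the block was tested on simulated data with independent noise between arrays. The brightness filter, the gene lists, the distances and the motif search were not tested in this way. The number of arrays limits the precision.

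The members and lists were chosen with earlier results of these data known. The named genes are all members, the 4 called genes of each list with the largest difference, up to 3 called markers of a cell type, and the 5 genes nearest to Tnc and to Smoc1. Deviations of same-numbered mutant and control arrays from their group means had correlations of 0.165, 0.155 and 0.224 over the tested probes. Arrays of unlike number were not compared, so whether the replicate number in the titles is a pairing was not tested. The main fit takes no pairing into account, and the replicate block is used only as an alternative. Alternatives were no filter, a stricter filter, the replicate block, an intensity trend, array weights, centring on the array mean, the mean of a gene's probes, and leaving out each array.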

Additional observations from a re-analysis of the deposited data

How the results depend on the processing

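Over 198 recalculated differences of the 17 tested probes, 183 kept their direction and their side of the threshold, 5 lost the call, 2 gained it and 8 changed sign. The sign changes were all in probes that were not called. The Smoc2 probe (0.00) ran from -0.04 to 0.04 when single arrays were left out, among them -0.01 and -0.00, the third Sparc probe (-0.06) from -0.17 to 0.07, and the third Tnxb probe (0.00) from -0.07 to 0.09, with -0.06 and -0.02 between. The calls of both bright Tnc probes, both Smoc1 probes, the brightest Postn probe and Thbs2 were kept in every alternative in which they were tested. With the replicate block Sparcl1 was called (0.36, as in the fit without the block) and 9 probes were called higher instead of 8, and with array weights it was called too, at 0.27. Among the named genes of the lists the block ended the call of Spock2 alone. With a brightness filter that keeps fewer probes, 5 of the chosen probes were called higher, 4055 probes were called in all instead of 6596, 2 other matricellular genes instead of 4, and 7 receptor genes instead of 11. The smaller counts include the loss of probes that were no longer tested. Without any filter 2 other matricellular genes were called, and with array weights 17 receptor genes and 9736 probes were. Leaving out single arrays gave 6 to 8 probes called higher, 2 to 4 other matricellular genes and 6 to 11 protease and crosslinker genes. The cause of these shifts was not tested. Of the chosen probes, 8 were too dim to be among those tested, and whether probes near the array median of 8.24 follow their transcripts was not tested.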
